A study of Arabidopsis thaliana with 6 samples.

Results

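Leaf messenger RNA of wild-type (WT) Arabidopsis thaliana was described from the 2 WT libraries of a series of 6. All 32947 genes of the deposited tables were taken in each library, out of the same 32947 genes in the whole series, and every gene lies on chromosomes 1 to 5. The plants were ecotype Columbia-0 grown in constant light, and the leaves were 3 weeks old in all 6 libraries. The other 4 libraries were used here as a measure of spread and read density, and beside the WT genes that differ or are silent. They came from 1 mutant each. These mutants are nrpe1-11, idn2-1, a double mutant of idnl1-1 and idnl2-1, and a triple mutant that adds idn2-1 to those alleles. These genes act in RNA-directed DNA methylation, and the series asked how their loss affects leaf messenger RNA. The labels do not say whether the 2 WT libraries came from separate plants, from pools or from 1 extract.

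A green leaf spends much of its nuclear messenger RNA on the chloroplast. Antenna proteins collect light, photosystems I and II and the electron carriers between them turn it into reducing power, the ATP synthase makes ATP, and the Calvin cycle fixes carbon with Rubisco, whose small subunit is encoded in the nucleus. Photorespiration recovers the product that Rubisco makes when it reacts with oxygen in place of carbon dioxide.

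Levels are in RPKM, reads per kilobase of gene span (start to stop, introns included) scaled to the library's total. Each RPKM times span was a whole multiple of a smallest step, which gave back the number of reads. In each gene 1 step was taken as an added read. WT replicate 1 held 2737943 reads in genes and WT replicate 2 held 5975802, so replicate 2 was 2.18 times as deep. The double mutant, with 5819494 reads, was as deep as replicate 2, and the other 3 mutants held 2793873 to 3078153. With 1 read in a gene of 2 kb, the level was 0.180 RPKM in replicate 1 and 0.0832 RPKM in replicate 2.

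Many of the genes with the highest RPKM in wild-type leaves act in photosynthesis. Of the 25 genes with the highest mean log2(RPKM + 1), 11 belonged to the 74 photosynthesis genes listed for this work, and of the top 100 genes 32 did. The order among the 25 is limited by a ceiling on reads per base, given after the pathways, since their reads were at most 1.44 times as many in the library that was 2.18 times as deep. The first was FED A (AT1G60950, chromosome 1 from 22448185 to 22448826 in TAIR8), which encodes the main leaf ferredoxin, the carrier that takes electrons from photosystem I. It had 891 reads in replicate 1 and 996 in replicate 2, which made 502 and 259 RPKM. The read number was thus nearly the same in both libraries, although 1 was far deeper.

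Photosystem I followed with PSAG, a membrane subunit, at 453 and 239 RPKM (976 and 1117 reads). PSAD-1, the subunit that docks ferredoxin, stood at 439 and 240 RPKM, and its second copy PSAD-2 at 369 and 205 RPKM. Both copies of that subunit were among the top 25. In photosystem II the small subunits PSBX (439 and 222 RPKM) and PSBTN (414 and 232 RPKM) led, with the 5 kD protein AT1G51400 at 366 and 203 RPKM. DRT112, a plastocyanin that carries electrons to photosystem I, stood at 413 and 223 RPKM.

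Antenna genes made up 5 of the 25. LHCB4.2, which encodes a minor antenna protein of photosystem II, was the highest of them at 418 and 233 RPKM. LHCA3 of photosystem I stood at 398 and 206 RPKM, and LHCB2.3, LHCB3 and LHCB6 were between 380 and 388 RPKM in replicate 1 and between 205 and 211 in replicate 2. The ATP synthase gave ATPD (delta subunit) at 423 and 234 RPKM and ATPC1 (gamma subunit) at 402 and 233 RPKM.

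Several leading genes lay outside the light reactions. GER1, a germin-like protein of the cell wall, ranked 2 with 458 and 243 RPKM (1178 and 1358 reads). RABE1b, named after RAB GTPases in the annotation and known as the elongation factor Tu of the chloroplast, ranked 4 with 421 and 252 RPKM. GUN5, the H subunit of magnesium chelatase in chlorophyll synthesis, had the most reads of the 25, with 4759 and 6388, and 351 and 217 RPKM over its longer span. CP12-2, a regulator that links 2 enzymes of the Calvin cycle, stood at 378 and 219 RPKM. The cell wall genes PRP4 (402 and 237 RPKM) and CWLP (336 and 219 RPKM) completed this group.

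The non-coding gene AT3G22121, at 390 and 259 RPKM, overlaps CWLP. No source used here states that reads were counted by strand, so reads of these overlapping genes cannot be told apart. The remaining genes of the 25 were AT1G74470, which encodes geranylgeranyl reductase of chlorophyll synthesis (363 and 214 RPKM), AT1G09310 (416 and 237 RPKM) and AT1G13930 (408 and 231 RPKM).

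**Figure D1:**
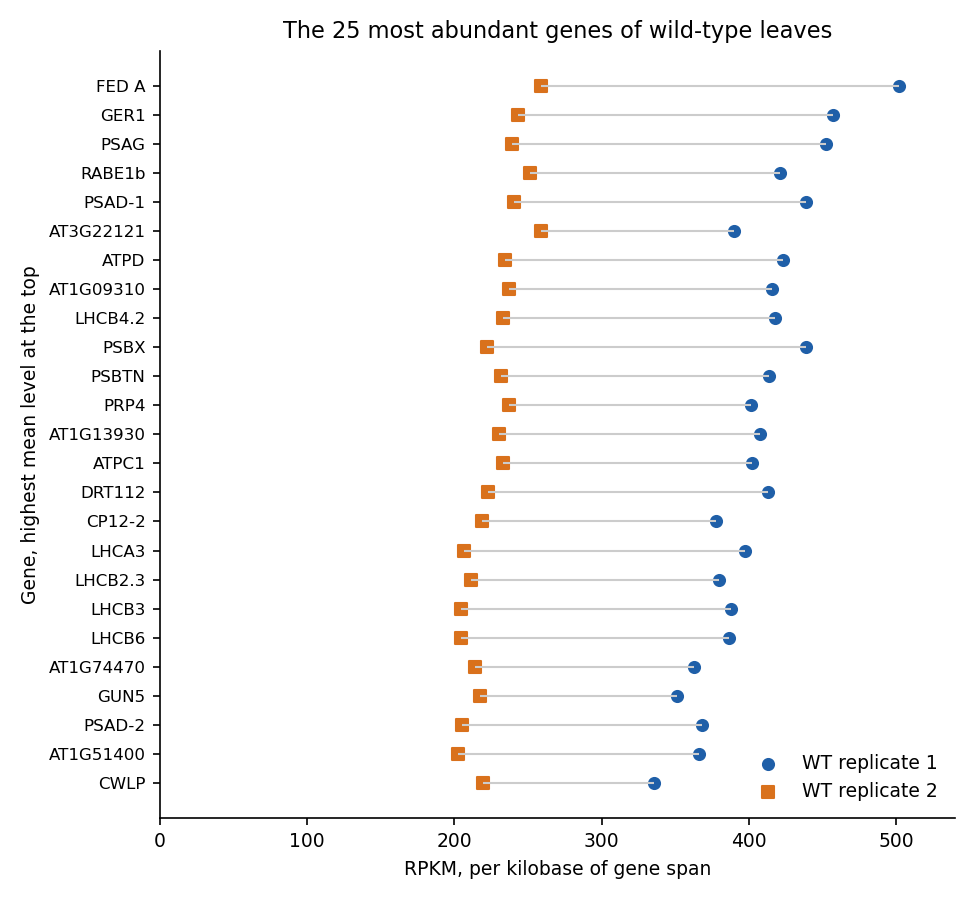
Level in RPKM (horizontal axis) of the 25 genes with the highest mean log2(RPKM + 1), in WT replicate 1 (circles) and WT replicate 2 (squares), ordered by that mean. In every gene the circle lies to the right: replicate 1 spans 336 to 502 RPKM and replicate 2 spans 203 to 259 RPKM.

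The upstream bases of these genes were searched for 4 known promoter motifs, all but the TATA box on both strands, in the 100 bases before the annotated start (RefSeq annotation of TAIR10.1). The G-box, CACGTG, is a core bound by basic leucine zipper and basic helix-loop-helix factors, among them factors of the light response. It was found in 10 of the 98 protein-coding genes of the top 100 (10.2%), in 3.70% of all 26526 protein-coding genes and in 1.63% of the 5024 protein-coding genes without reads. The 3 windows among the top 25 that hold it are shown, with the G-box in capitals.
PSBTN (TAIR10.1, chr3:7377227-7377326, minus strand): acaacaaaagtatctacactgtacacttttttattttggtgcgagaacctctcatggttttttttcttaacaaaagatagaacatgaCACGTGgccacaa
LHCB2.3 (TAIR10.1, chr3:10255806-10255905, plus strand): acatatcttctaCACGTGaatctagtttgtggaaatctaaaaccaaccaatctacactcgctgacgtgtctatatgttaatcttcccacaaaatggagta
AT1G51400 (TAIR10.1, chr1:19052583-19052682, minus strand): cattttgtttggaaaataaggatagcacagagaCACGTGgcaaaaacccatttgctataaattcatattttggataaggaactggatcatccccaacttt

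The other motifs were spread differently. TGGGCC or its reverse GGCCCA was in 9.18% of the top 100, 9.03% of all protein-coding genes and 1.65% of those without reads. GATAAG or CTTATC was in 9.18% of the top 100, 5.18% of all and 251 of the 5024 without reads. TATAAA, searched from 50 to 16 bases before the start on the strand of the gene, was in 8.16%, 8.89% and 10.4% of these sets, and TATAAA or TATATA in 9.18%, 15.1% and 18.8%. A match is a description of these letters, not a site.

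The Rubisco genes were not among the 25. RBCS1A, which encodes the small subunit copy with the most reads (999 and 1125), ranked 94 at 285 and 148 RPKM. RCA, the activase that keeps Rubisco working, ranked 103 at 278 and 140 RPKM. Both ranks are limited by the ceiling too, since reads in replicate 2 were 1.13 times as many in RBCS1A and 1.09 times in RCA. RBCS3B (156 and 90.6 RPKM), RBCS2B (151 and 97.3 RPKM) and RBCS1B (95.2 and 60.4 RPKM) were lower than RBCS1A in both libraries. These 3 copies lie side by side on chromosome 5 and share sequence, and no source used here says how reads that match several places were handled. The first 120 coding bases of the 4 copies are shown (TAIR10.1, each gene on the minus strand), with capitals where a base differs from RBCS1A.
RBCS1A: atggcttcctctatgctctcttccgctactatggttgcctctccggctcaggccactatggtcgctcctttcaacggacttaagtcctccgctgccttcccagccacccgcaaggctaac
RBCS1B: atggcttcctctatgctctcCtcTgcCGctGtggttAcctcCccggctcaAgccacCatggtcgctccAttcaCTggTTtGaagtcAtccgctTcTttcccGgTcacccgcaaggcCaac
RBCS2B: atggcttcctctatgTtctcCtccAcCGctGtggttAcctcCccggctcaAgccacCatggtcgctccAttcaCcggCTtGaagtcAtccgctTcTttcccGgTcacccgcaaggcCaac
RBCS3B: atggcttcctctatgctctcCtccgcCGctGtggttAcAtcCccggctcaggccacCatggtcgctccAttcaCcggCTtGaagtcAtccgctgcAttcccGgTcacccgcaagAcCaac

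Over this stretch 19 to 21 bases differed from RBCS1A. Between RBCS1B and RBCS2B the coding sequences were 97.3% identical over 546 bases. The share of exon 31-mers (all stretches of 31 bases in the exons) that occur once in the genome was 97.5% in RBCS1A, 82.3% in RBCS1B, 76.5% in RBCS3B and 68.3% in RBCS2B. The 2 copies with the lower shares, RBCS2B and RBCS3B, had more reads than RBCS1B in both libraries.

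The Calvin cycle and photorespiration lists were high and uneven. Among 14 Calvin cycle genes (carbonic anhydrases included) the levels ran from 56.4 to 378 RPKM in replicate 1 and from 32.7 to 219 in replicate 2, with CP12-2 highest and the carbonic anhydrase CA2 lowest. CA1, another carbonic anhydrase, stood at 112 and 62.7 RPKM. In replicate 2 the reads were 1.21 times as many in CA1 and 1.26 times in CA2. A part of the ceiling in these low levels was not tested. Among 11 photorespiration genes GLDT, the T protein of glycine decarboxylase, was highest at 274 and 161 RPKM. One gene of this pathway, PGLP1, had no read in any of the 6 libraries and is described with the silent genes.

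Reads were also divided by exon length in place of span, in the 16689 genes whose span is within 5% of TAIR10.1, a set that leaves out FED A, RABE1b and LHCB3 among others. Within it GER1, PSAG, LHCB6 and ATPC1 led, followed by THI1, which makes the thiazole part of vitamin B1. Over these same genes 82 of the top 100 by exon length were also in the top 100 by span, a comparison chosen after seeing the data. Of the top 100 over all genes, 20 were in the top 100 by exon length. By span over the 16689 genes it was also 20. Most of the top 100 over all genes thus lay outside this set and were not ranked by exon length. The share of all reads in the top 100 was small either way, 4.12% in replicate 1 and 2.47% in replicate 2 by span over all genes, and 3.77% and 2.48% by exon length over the 16689. The ceiling on reads per base, given below, limits these shares, so they do not measure the share of leaf messenger RNA in these genes.

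The abundant genes reached a common limit in reads per base. The densest gene had 1.39 reads per base of span in replicate 1 (FED A) and 1.55 in replicate 2 (AT3G22121), and this highest value was 1.37 to 1.56 over all 6 libraries, although the libraries differ 2.18 times in depth. Per exon base the highest values were 1.27 and 1.46, both in GER1. In replicate 1, 24 genes exceeded 1 read per base of span, against 85 in replicate 2. Levels of at least 300 RPKM were reached by 47 genes in replicate 1 and by 0 genes in replicate 2, and levels of at least 200 RPKM by 180 and 33 genes.

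The read ratio between the 2 WT libraries varied with how densely a gene was read. Genes were binned by their reads per base in the nrpe1, idn2 and triple mutant libraries, which took no part in the ratio. In the 677 genes at up to 0.01 reads per base the median ratio of replicate 2 to replicate 1 was 3.00. It was 2.46 in the 3750 genes from 0.05 to 0.1, 1.69 in the 525 genes from 0.3 to 0.5 and 1.24 in the 44 genes above 0.9. Thinly read genes thus had more than the 2.18 times that the totals give, and densely read genes had less.

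The deep double mutant against the shallow triple mutant gave the same course, from 3.00 to 1.21, with a ratio of totals of 2.08. The idn2 library against WT replicate 1, of nearly equal depth, stayed between 1.05 and 1.12. Both the triple mutant and idn2 helped set the bins, so these ratios, unlike that of the WT pair, are not independent of the binning. The ratio fell with density in both pairs of unequal depth, the WT pair of a single genotype and the pair of the double and triple mutants. No source used here says whether identical reads were removed, and the part of such a step in the ceiling was not tested.

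**Figure D2:**
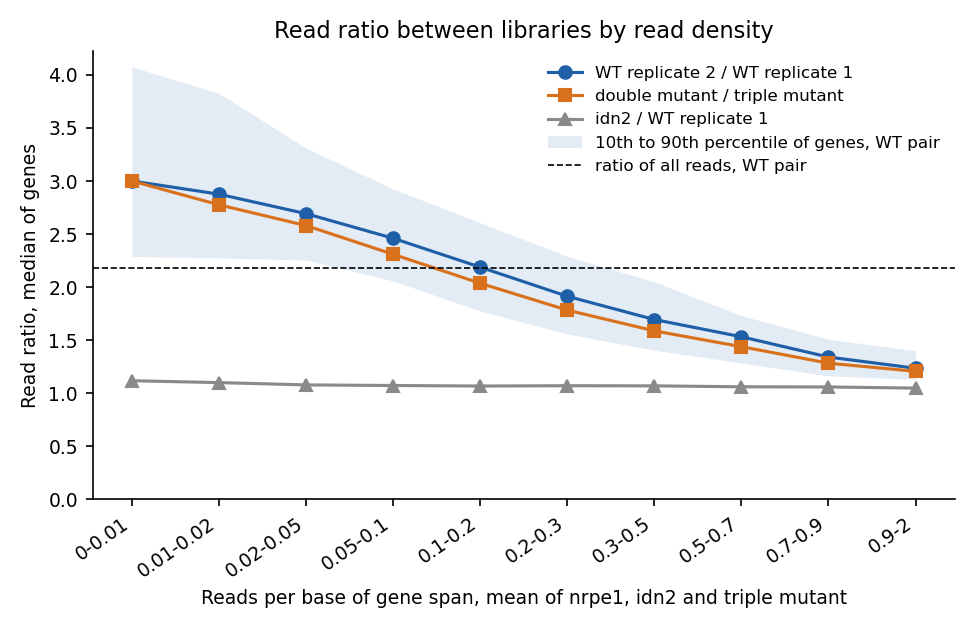
Median read ratio of genes (vertical axis) in bins of reads per base of span, the mean of the nrpe1, idn2 and triple mutant libraries (horizontal axis), for 3 pairs of libraries. The shaded band holds the 10th to 90th percentile of genes in the WT pair and the dashed line is the ratio of all reads, 2.18: the WT pair falls from 3.00 to 1.24, the double over triple mutant from 3.00 to 1.21, and idn2 over WT replicate 1 stays between 1.05 and 1.12.

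On the RPKM scale photosynthesis genes were lower in the deeper library. Of the 73 photosynthesis genes with reads 72 were lower in replicate 2, with a median difference of -0.81 in log2(RPKM + 1). The exception was LHCB7, the least abundant gene of the antenna list, with 138 and 306 reads, 29.6 and 30.2 RPKM and a difference of 0.03. Densely read genes were lower as a whole. In the density bins above, photosynthesis genes included, the median difference was -0.50 from 0.5 to 0.7 reads per base. It was -0.69 from 0.7 to 0.9 and -0.81 above 0.9. Over all 21743 genes with at least 1 RPKM in either WT library (the genes tested) the median difference was 0.16, and 14726 were higher in replicate 2. Median-of-ratios scaling, which equalises the typical gene, shifted the pair by 0.22. Under it 9656 of the tested genes were higher and 12087 lower (median -0.04), and under quantile normalization 11589 were higher (median 0.02). All 73 photosynthesis genes with reads were lower under the first, and 71 of 73 under the second, with a median of -0.26.

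Over all tested genes the difference varied with abundance. In the decile of lowest abundance (0.520 to 1.61 RPKM), which had a median of 1 and 4 reads, so that the added read described with the silent genes weighs on it, the median difference was -0.27. It was 0.31 in the fourth decile (4.98 to 7.69 RPKM) and -0.21 in the decile of highest abundance (53.9 to 361 RPKM). With deciles set by the mutant libraries these values were -0.11, 0.32 and -0.22, and under median-of-ratios scaling -0.38, 0.12 and -0.42, where deciles 2, 8 and 9 also turned negative. The double mutant minus the triple mutant gave, in the same deciles, -0.24, 0.32 and -0.25.

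Genes often used as references were not level either. Among 14 control genes 10 were lower in replicate 2, from -0.72 in EF1A, a translation elongation factor (203 and 123 RPKM), to 0.44 in PP2AA3, a phosphatase subunit (14.3 and 19.7 RPKM). The 4 that were higher, SAND, TIP41, UBC21 and PP2AA3, had the lowest levels of the list, and the actins ACT2, ACT7 and ACT8 and the ubiquitin UBQ10 were lower. Under median-of-ratios scaling 11 of the 14 were lower, and under quantile normalization 10.

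Markers of leaf cell types were read in both libraries. All 12 guard cell and stomatal genes had reads, among them TMM, a receptor of stomatal patterning (29.6 and 37.4 RPKM), and the ion channel KAT1 (146 and 377 reads). All 12 were higher in replicate 2, with a median difference of 0.37, but only 9 were under median-of-ratios scaling and 10 under quantile normalization. The list had medians of 8.16 and 9.66 RPKM. All tested genes of the deciles from 4.98 to 7.69 and from 7.69 to 11.3 RPKM had median differences of 0.31 and 0.30, near that of the list. The widest difference among the guard cell and stomatal genes was that of the kinase HT1, 0.97, with 13 and 66 reads. The 11 epidermis and trichome genes (median 0.11) and 13 phloem and xylem genes (median 0.32) lay on both sides of 0. Under median-of-ratios scaling these medians were -0.06, with 7 of 11 epidermis genes lower, and 0.11, and under quantile normalization 0.04 and 0.10. The epidermal gene PDF1 was the most abundant of these cell type markers, at 195 and 143 RPKM.

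Genes of inducible programs were read in both WT libraries. TCH4, a touch-induced cell wall enzyme, had 658 and 1084 reads (206 and 157 RPKM), and the ethylene response factor ERF104 had 178 and 417 reads (61.9 and 66.6 RPKM). Of the 14 rapid stress genes 13 stayed within the 2-fold rule described below, between -0.40 and 0.52. The exception was CBF2, a regulator of the cold response, with 2 and 26 reads, 1.15 and 4.77 RPKM and a difference of 1.42. The 15 clock genes ran from -0.19 in CCA1 (84.7 and 74.1 RPKM) to 0.68 in ELF4 (7 and 29 reads). Of the heat shock, defence, senescence, flavonoid and cell division genes 0 were 2-fold apart. The same rule called 1.09% of all tested genes, so these counts are near the background.

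**Figure D3:**
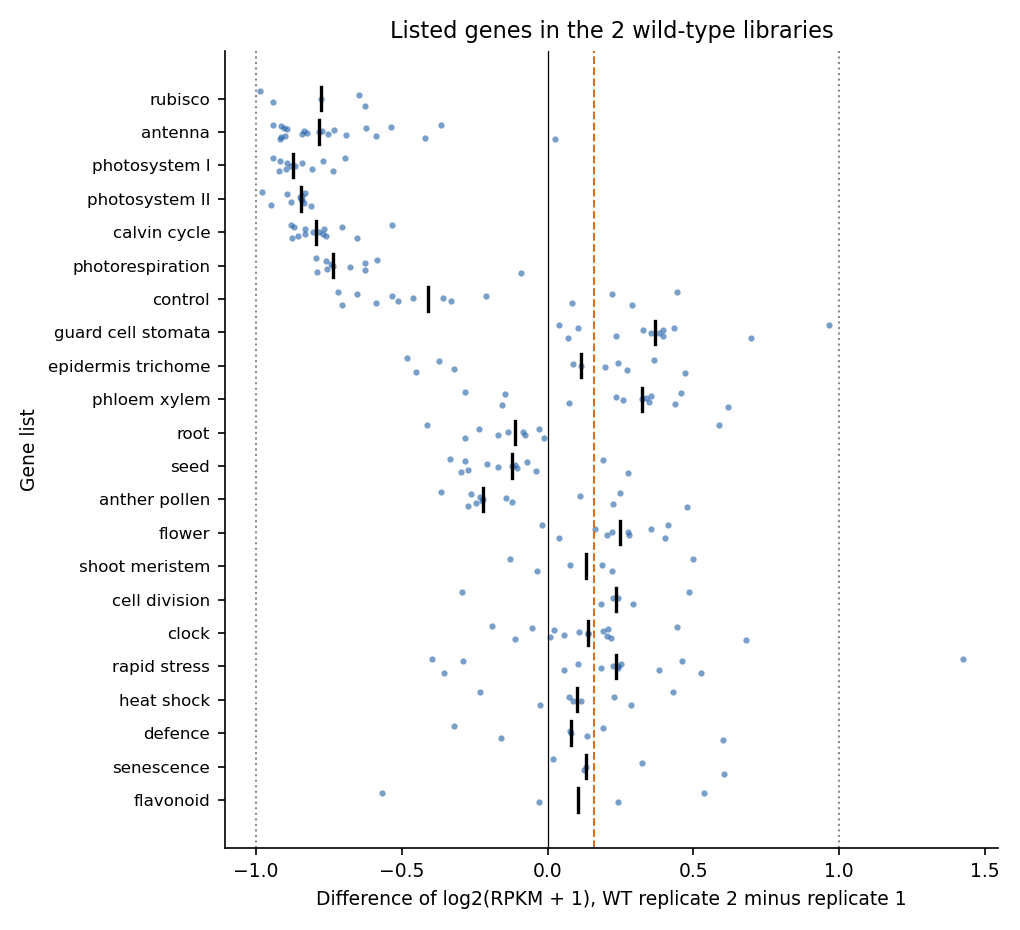
Difference of log2(RPKM + 1), WT replicate 2 minus replicate 1 (horizontal axis), of each gene in 22 lists (points), with the list median (black bar). Dotted lines mark the 2-fold rule at -1 and 1 and the dashed line the median of all tested genes, 0.16: the photosynthesis lists lie left of 0 except LHCB7 (the point of PGLP1, at 0 reads in both libraries, reflects the added read alone), and CBF2 among the rapid stress genes is the one listed gene beyond 1.

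With 1 library on each side there was no test of single genes, so genes that differ were named by size. At least 2-fold apart on log2(RPKM + 1) were 236 of 21743 genes (1.09%), 166 higher (0.763%) and 70 lower (0.322%) in replicate 2. The 5 genes nearest the limit on the inside differed by 1.00 to 1.01 and the 5 on the outside by 0.995 to 1.00. None of the top 100 genes was among the 236, and the most abundant of them ranked 4901. The split between directions depended on the scaling, with 81 higher and 773 lower under median-of-ratios and 148 higher and 152 lower under quantile normalization. It also turned at a pseudocount of 0.1, with 579 higher and 1775 lower, and with differences centred on their decile, with 178 higher and 622 lower.

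These were thinly read genes. The 166 higher genes had a median of 4 reads in replicate 1 and 30 in replicate 2, and 128 of them had under 10 reads in replicate 1. The 70 lower genes had a median of 2 and 0 reads, and 69 of them had under 10 reads in both libraries. Leaving out all genes under 10 reads in both left 152 higher and 1 lower.

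The mutants did not take part in finding these genes. The double mutant lay above all 3 shallower mutants in 69 of the 166 higher genes (41.6%), against 42.3% of all tested genes. It lay below all 3 in 34 of the 70 lower genes (48.6%), against 22.6% of all tested genes. The share of the higher genes was near the background. For the lower genes the background is no fair measure, since with few or 0 reads the added read alone gives a lower RPKM in a deeper library. Depth and genotype cannot be told apart in the double mutant.

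A second rule asked that the exact 95% interval of the read ratio, scaled by the totals, lie wholly beyond 2-fold, and 5 genes (0.023%) met it, 4 higher (0.0184%) and 1 lower (0.0046%) in replicate 2. The totals give 2.18, but the median read ratio of genes at up to 0.01 reads per base was 3.00. Scaling by the totals thus tilts the ratios of thinly read genes, the named ones among them, towards replicate 2. PP2-A6 (AT5G45080, chromosome 5 from 18208802 to 18210434 in TAIR8), a gene of the phloem protein 2 family, had 0 and 21 reads, or 0.221 and 2.24 RPKM. The lower bound of its ratio was 2.39. AT1G34040, annotated as a transferase that uses pyridoxal phosphate, had 0 and 19 reads, with a lower bound of 2.14. In the mutants PP2-A6 had 5 to 12 reads and AT1G34040 had 2 to 16.

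MEE25 (AT2G34850) and the uncharacterized AT5G20790 had 1 and 28 reads each, a ratio of 12.8 with a 95% interval of 2.12 to 525. In the 4 mutants MEE25 had 8 to 29 reads and AT5G20790 had 7 to 38. The gene on the other side was RLP52, a receptor-like protein, with 9 and 2 reads and a ratio of 0.102 (0.0107 to 0.492). Its mutant libraries held 0 to 4 reads. All of these intervals cover counting error only and are not adjusted for the 21743 genes compared. With a 99% interval 0 genes were left in either direction. Under median-of-ratios scaling 1 gene was higher and 24 lower.

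Away from the ceiling the 2 WT libraries differed by about the counting error. For each pair of libraries the reads of a gene were compared with the share expected from genes of like density, and the variance of the deviations was divided by the binomial variance, so that 1 is counting error alone. The genes were those with at least 20 reads in the pair and a span within 5% of TAIR10.1. For the WT pair the ratio was 0.986 over 2211 genes under 0.1 reads per exon base. Over the other 14 pairs of the 6 libraries it ran from 1.24 (triple and double mutant) to 3.47 (WT replicate 2 and nrpe1). The WT pair was the lowest of the 15 in each bin below 0.5 reads per exon base. It was also the only pair of 1 genotype. Spread between libraries and genotype cannot be told apart in the other 14.

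In densely read genes the WT pair spread more. The ratio was 1.15 from 0.1 to 0.2 reads per exon base, 1.32 from 0.2 to 0.5, 3.07 from 0.5 to 1 and 8.35 above 1, where it was ninth of the 15 pairs. Above 1, pairs of like depth ran from 0.926 (WT replicate 1 and idn2) to 6.05 (nrpe1 and triple mutant). Pairs of unequal depth ran from 7.36 (triple and double mutant) to 14.8 (WT replicate 2 and nrpe1). Among the latter only the triple and double mutant pair was lower than the WT pair. Over all 7233 genes with at least 20 reads and a span within 5% of TAIR10.1 the ratio of the WT pair was 1.57. With every gene kept, span in place of exon length and at least 50 reads, it was 2.33 over 16718 genes. Below 0.1 reads per exon base the libraries agreed within about the sampling noise (0.877 to 1.01 by bin) and were counted as 1 sample there, so both values are printed and no SD is given. They are not copies of each other, since 285 genes had reads in the shallower library alone.

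**Figure D4:**
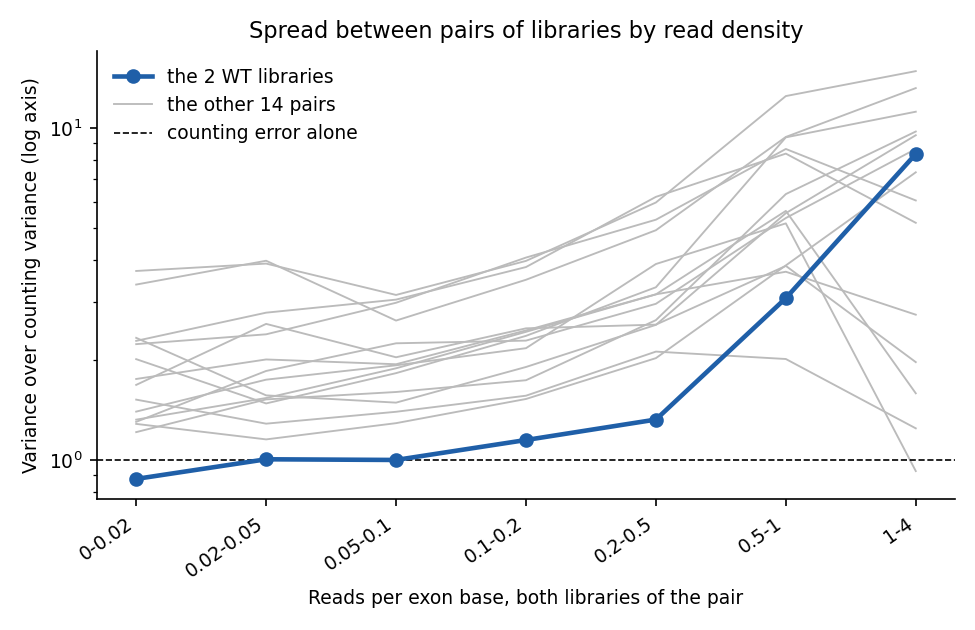
Variance between 2 libraries over the counting variance (vertical, log axis) by reads per exon base summed over the pair (horizontal axis), for the WT pair (thick line) and the other 14 pairs (thin lines). The WT pair stays near 1, the dashed line of counting error alone, up to 0.1 reads per exon base and reaches 8.35 above 1 read per base. Genes have a span within 5% of TAIR10.1, and each thin line joins 2 genotypes.

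Of all genes 10401 (31.6%) had 0 reads in both WT libraries and are called silent here, within what this depth can show. A count of 0 over both libraries allows up to 3 reads, which in WUS, a regulator of the shoot stem cells, is 0.179 RPKM. Protein-coding genes were silent in 5024 of 26526 cases (18.9%), long non-coding RNA genes in 12 of 181 (6.63%), miRNA genes in 120 of 176 (68.2%) and tRNA genes in 593 of 623 (95.2%). The class pseudogene, which in this annotation also holds transposable element genes, was silent in 3628 of 3890 (93.3%). The library protocol was for messenger RNA, which leaves out most tRNA and processed miRNA.

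A silent gene does not have an RPKM of 0 in the tables, since every gene held at least 1 step. That step was taken here as 1 read added to each gene, which no source used here states. The 593 silent tRNA genes, with a median span of 71 bases, stood at a median of 5.08 RPKM in replicate 1 and 2.34 in replicate 2. Of the 21743 genes that passed 1 RPKM, 1909 had no read in either library, and 19834 had reads. The highest level of a gene without reads was 10.3 RPKM in replicate 1 and 4.75 in replicate 2.

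More genes were read in the deeper library. Reads were found in 21040 genes in replicate 1 and 22261 in replicate 2. Thinning replicate 2 by the read ratio of thinly read genes, 3.00, gave 11860 genes at 0 reads, and 11907 were at 0 in replicate 1. Thinning by the totals gave 11513. The 1506 genes with reads in replicate 2 alone had a median of 1 read and at most 21, and the 285 with reads in replicate 1 alone had a median of 1 and at most 4.

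Silent genes crowded around the centromeres. Of the 121 windows of 1 Mb (TAIR8), 22 had over 60% silent genes, and they were the neighbouring windows from 13 to 17 Mb on chromosome 1, 2 to 7 Mb on chromosome 2, 11 to 16 Mb on chromosome 3, 3 to 6 Mb on chromosome 4 and 10 to 15 Mb on chromosome 5. These windows held 37.5% of all silent genes. The highest share was 97.9%, between 11 and 12 Mb on chromosome 5. Protein-coding genes were silent in 52.0% of 1449 cases there and in 17.0% of 25077 cases elsewhere, a description only, since the windows were chosen by their silent genes.

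Markers of other organs were mostly silent or nearly so. Of 13 seed genes 8 were silent, among them the storage protein genes CRB and CRC and the regulator ABI3, and the other 5 had at most 7 reads in a library. Of 10 root genes 5 were silent, including the root stem cell regulators PLT1 and PLT2 and the iron transporter IRT1, while WOX5 had 9 and 14 reads. Of 13 anther and pollen genes 6 were silent, and the whole list held 16 and 42 reads. The 10 flower genes all had reads, 80 and 252 in sum, with SEP1 at 41 and 108.

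Genes of the shoot meristem were in part read. The homeobox genes STM (48 and 157 reads) and KNAT1 (57 and 145 reads) were present in both libraries, while WUS had 0 reads and CLV3, the stem cell peptide, 0 and 1. Dividing cells were marked by the cyclin CYCB1;1 (32 and 105 reads). The part of meristem tissue in these values was not tested.

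Repeated sequence went with silence. Of the 176 protein-coding genes with no exon 31-mer that occurs once in the genome, 174 were silent (98.9%). The share fell to 69.0% of 281 genes with over 10 to 50% of such 31-mers, 43.8% of 1478 with over 50 to 90%, and 14.3% of 16149 genes in which every 31-mer occurs once. Over all gene classes 371 of the 375 genes with none were silent, and the highest sum of reads in the others was 5. In such a gene a missing transcript and reads set aside for matching several places cannot be told apart.

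**Figure D5:**
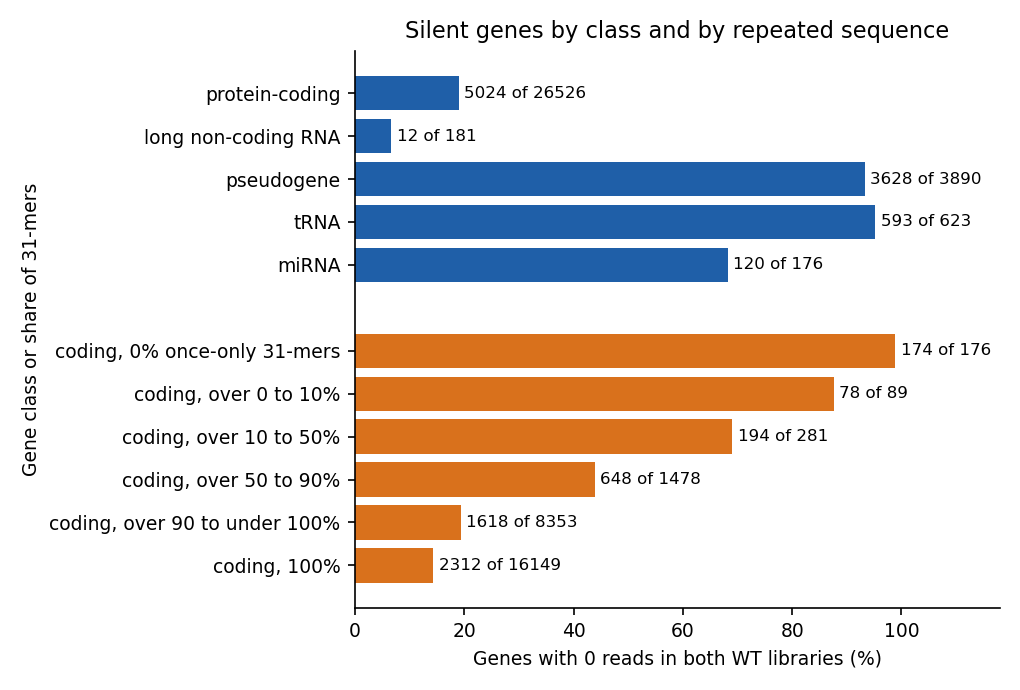
Share of genes with 0 reads in both WT libraries (horizontal axis, percent) by gene class (upper bars) and, for protein-coding genes, by the share of exon 31-mers that occur once in the genome (lower bars), with the number of silent genes of all genes beside each bar. The share falls from 98.9% of genes with no such 31-mer to 14.3% of genes with only such 31-mers.

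PGLP1 was a silent gene in an abundant pathway. It encodes the phosphoglycolate phosphatase of photorespiration, the first enzyme of the pathway, whose other 10 listed genes stood at 78.8 to 274 RPKM in replicate 1. PGLP1 (AT5G36700, chromosome 5 from 14438865 to 14441720 in TAIR8) and its neighbour copy AT5G36790 (14498165 to 14501020) had 0 reads in both WT libraries, and since neither has a 31-mer that occurs once, no upper limit on their level follows from it. PGLP1 was also at 0 in the 4 mutants. The 1089 coding bases of the 2 genes are identical in TAIR10.1, as the first 120 show.
PGLP1: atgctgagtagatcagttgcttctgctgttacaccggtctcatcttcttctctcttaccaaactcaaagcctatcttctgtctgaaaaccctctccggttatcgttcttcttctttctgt
AT5G36790: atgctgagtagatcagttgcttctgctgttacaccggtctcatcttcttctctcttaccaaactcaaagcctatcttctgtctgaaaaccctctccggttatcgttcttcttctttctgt

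The copies belong to a duplicated block. Of the 20 genes from AT5G36670 to AT5G36790, 19 had no 31-mer that occurs once, and all 19 were silent. In a second block, from AT5G50520 to AT5G50700, 21 of 23 genes had none and all 23 were silent, among them the SUMO-activating enzyme gene SAE1B and the squamosa-promoter factors SPL13A and SPL13B. The same held for the translation initiation factor genes AT1G53880 and AT1G53900. The part of the authors' handling of such reads was not tested.

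The longest silent protein-coding genes were of other kinds. AT3G60961 spans 11210 bases with 599 of exon and overlaps another gene. AT1G58050, an RNA helicase, spans 9249 bases, and 96.4% of its 31-mers occur once. AT2G08986 (8402 bases, 19.4%), the purple acid phosphatase PAP5 (7323 bases, 82.9%) and the chromatin remodeller PKR2 (6915 bases, 98.3%) completed the 5. Silence in AT1G58050 and PKR2 was thus measured over mostly unrepeated sequence.

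Most silent genes stayed silent in the mutants. Of the 10401, 9229 had 0 reads in all 6 libraries and 1172 had a read in at least 1 mutant. In 962 of these the 4 mutants held 1 or 2 reads in sum.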

How the data were processed

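The authors deposited RPKM per gene for 6 leaf libraries on TAIR8 gene models, with Bowtie per the submitters' processing notes; duplicate, multi-mapping and strand handling are not given in the sources used here. In every library 100% of values times span were whole multiples of 1 step (tolerance 1e-06); the lowest multiple, 1, was taken as an added read and removed. Members and lists (235 genes in 22 lists) were chosen with earlier results of these data known. TAIR10.1 (RefSeq) gave symbols, classes, exons and sequences for 32377 genes and not for 570; positions in the tables were raised by 1. Named were the 25 most abundant genes, up to 12 per direction by the interval rule, the 5 longest silent protein-coding genes, list members and, after their values were seen, genes in exact copies. Read density bins, the variance ratio (at least 20 reads, windows of 301 genes, checked on simulated data), 31-mer uniqueness, the 60% limit and motifs were chosen after seeing the data. Density bins needed 60 reads over 3 mutants. The variance ratio used genes with a span within 5% of TAIR10.1. Intervals are exact (Clopper-Pearson); they and the limit of 3 reads cover counting error only. Values were computed with scipy 1.17.1, pandas 2.3.3 and numpy 2.4.6 in Python 3.11.15 and drawn with matplotlib 3.10.9. Alternatives changed the pseudocount, filter, scaling, length, interval and the genes or libraries kept. With 1 WT library on each side no p-value is given.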

Additional observations from a re-analysis of the deposited data

How the results depend on the processing

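No paired analysis was possible because each mutant has 1 library and the labels give no numbers shared between genotypes. The count of genes at least 2-fold apart, 236, became 569 at a pseudocount of 0.5 and 2354 at 0.1, 127 with a filter of 5 RPKM, 854 under median-of-ratios scaling, 153 without genes under 10 reads in both libraries, and 800 when differences were centred on their decile (chosen after seeing the data). The 5 genes of the interval rule became 0 at 99% and 25 under median-of-ratios scaling. RLP52 moved from -1.02 to -0.89 under quantile normalization, inside the 2-fold rule. Silent genes numbered 10686 to 11907 in either library alone, 1128 under 0.1 RPKM in both (which the added read prevents in short genes), and 2312 among protein-coding genes of fully unique exon 31-mers, a smaller set. The share of reads in the top 100 was 2.50% to 4.19% in either library alone. In the decile of highest abundance the median difference was -0.42 under median-of-ratios scaling, against -0.21. The double mutant lay on the side of replicate 2 in 67 of 153 genes (43.8%) without thinly read genes, against 103 of 236 (43.6%). Of all tested genes it lay above the 3 shallower mutants in 42.3% and below them in 22.6%. Since 152 of the 153 were higher in replicate 2, their share is near the background. The variance ratio of the WT pair was 0.971 to 1.06 under other read minimums, windows, lengths, gene sets and limits. With no density limit it was 1.57. It was 2.33 with no limit, at least 50 reads and span lengths over every gene, where set and length changed together. The cause of these changes was not tested unless stated.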
